A study of Mus musculus with 6 samples.

Results

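Peptide supply to MHC class I was examined through 10 genes of its processing machinery in plasmacytoid dendritic cells (pDCs) from IRF8-deficient (KO) and wild-type (WT) mice. The genes were listed by function, with earlier results of these data known: B2m, Tap1, Tap2, Tapbp, Tapbpl, Erap1, Psmb8, Psmb9, Psmb10 and Nlrc5. All 10 were measured, out of 19937 genes with a probe set annotated to that symbol alone. Per the labels, the cells were splenic, positive for B220 and SiglecH, and came as 3 KO and 3 WT samples on Affymetrix arrays. The labels used here name no allele, strain, age or sex. Nor do they say whether each sample was 1 animal, so the spread behind the p-values may be that of technical repeats.

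MHC class I molecules show peptides from inside the cell to CD8 T cells. Proteins are cut by the proteasome, whose catalytic subunits are exchanged for immunoproteasome subunits under interferon, and peptides are pumped into the endoplasmic reticulum (ER) by the TAP transporter. There they are trimmed by ERAP1 and exchanged under the control of tapasin and its relative TAPBPR until a stable complex of heavy chain, beta-2 microglobulin and peptide leaves for the surface. NLRC5 is the transactivator of many of these genes, and pDCs are known for interferon secretion more than for antigen presentation.

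The genes Psmb9, Tap1, Psmb8 and Tap2 follow each other in this order among coding genes of mouse chromosome 17 in RefSeq (GRCm38.p6), between H2-DMb1 and H2-Ob, 2 genes of the class II pathway. Psmb9 and Tap1 are read away from each other, and their annotated start sites lie 226 bases apart. Promoter windows of 250 bases before to 50 bases after the start were found in RefSeq for 7 of the 10 genes, and those of Psmb9 and Tap1 share 275 of their 300 bases. The windows were searched on both strands for a tandem IRF motif (GAAA, any 2 bases, GAAA) and for an ETS-IRF motif (GGAA, any 2 bases, GAAA), the type of site that IRF8 binds with PU.1. The tandem IRF motif was found in 2 of the 7 windows and the ETS-IRF motif in 0. Over 32851 promoter windows of the same length the shares were 3.44% and 2.72%. A match is a description of letters and not a binding site. The windows shown are the shared one of Tap1 and Psmb9 because it stands before a pair of neighbouring genes, and those of B2m and Erap1 because they hold the tandem IRF matches, which are in capitals. All are printed 5′ to 3′ on the gene's own strand, the plus strand in each case, from GRCm38.p6.
Tap1 (chr17:34187306-34187605, no match): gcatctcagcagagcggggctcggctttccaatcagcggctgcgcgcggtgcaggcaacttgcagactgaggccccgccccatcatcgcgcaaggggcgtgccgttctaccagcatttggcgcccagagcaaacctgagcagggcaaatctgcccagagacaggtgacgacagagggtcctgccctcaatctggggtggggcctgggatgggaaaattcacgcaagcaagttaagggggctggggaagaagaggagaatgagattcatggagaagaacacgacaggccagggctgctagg
B2m (chr2:122147437-122147736, tandem IRF motif from position -139): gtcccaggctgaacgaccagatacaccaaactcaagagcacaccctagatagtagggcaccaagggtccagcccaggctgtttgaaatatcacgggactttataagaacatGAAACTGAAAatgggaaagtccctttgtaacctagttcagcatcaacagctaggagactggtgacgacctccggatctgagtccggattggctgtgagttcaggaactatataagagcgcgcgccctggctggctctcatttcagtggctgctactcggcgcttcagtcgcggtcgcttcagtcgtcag
Erap1 (chr13:74639603-74639902, tandem IRF motif on the other strand from position -4): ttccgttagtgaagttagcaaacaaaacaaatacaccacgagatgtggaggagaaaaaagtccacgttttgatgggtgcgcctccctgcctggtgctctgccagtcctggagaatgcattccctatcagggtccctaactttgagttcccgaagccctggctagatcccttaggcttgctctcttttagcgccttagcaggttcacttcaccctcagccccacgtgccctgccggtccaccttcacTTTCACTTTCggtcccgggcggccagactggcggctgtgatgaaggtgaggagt
Positions count from the annotated start. Nlrc5, Tap2 and Tapbpl are named without a window.

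Before the genes themselves, the samples were checked. Array medians lay between 5.53 and 5.56 log2 units. Irf8, the targeted gene, measured 10.15, 10.49 and 10.79 in KO replicates 1 to 3, against 10.21, 9.97 and 10.24 in WT, with no loss in the samples labelled KO (limma adjusted p = 0.425). Which stretch of Irf8 was altered is not stated, so the probe set checks nothing and KO and WT are used below as labelled. The pDC marker Siglech was high in all arrays, at 12.18 to 12.34 in KO and 12.52 to 12.75 in WT. Of 11 pDC markers 7 had negative differences, and 3 fell by limma, Ccr9, Pacsin1 and Tlr7, by 0.60 to 0.97 on the log2 scale. Of 10 conventional dendritic cell markers 2 rose, Itgax (1.78) and Itgam (1.89), and 3 fell, Clec9a (-6.32), Cd209a (-3.73) and Clec10a (-2.62). Of 9 B cell markers 2 rose, Cd79a (1.65) and Fcer2a (0.60), and 0 fell. Of 8 T cell markers 1 rose, Cd5 (1.09), and 0 fell. Of 10 NK cell markers 0 rose and 1 fell, Klrk1 (-1.26). Among 13 handling stress genes 0 were called, and 11 had a positive difference. Over all 19937 genes 2.3% were called higher and 2.08% lower, with 8342 positive and 11595 negative differences. Neutrophil genes stood apart in KO replicate 1. The summed linear level of 10 such markers was 17058, 1690 and 600 in KO replicates 1 to 3, against 1473, 346 and 261 in WT. Macrophage genes were high in WT replicates 2 and 3, where 10 markers summed to 1366 and 1342, against 390 in WT replicate 1 and 302 to 363 in KO. The brightest in those 2 arrays were C1qc (8.93 and 8.57) and Hmox1 (8.39 and 8.56). Mertk, Cd5l, Adgre1 and C1qa lay at 4.24 to 5.61 there. No marker was listed at 0, since array signals carry a background. Their part in the values below was not tested.

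None of the 10 processing genes passed the test between genotypes. By limma, with Benjamini-Hochberg adjustment over all 19937 genes and a threshold of 0.05, 0 were called higher and 0 lower in KO. Over all genes 4.38% were called, 2.3% higher and 2.08% lower. At an unadjusted p under 0.05 there were 3 of the 10 genes, Nlrc5, Tap1 and Tapbpl, beside 16.1% of all genes. The KO minus WT differences ran from -0.69 to 0.75 log2 units, 6 positive and 4 negative, with a median of 0.13 beside -0.037 for all genes. KO and WT values did not overlap for 5 genes, Tap1 and Nlrc5 with KO above and Tapbpl, Psmb8 and Psmb10 with KO below. Such separation was seen for 20.4% of all genes, 8.71% with KO above and 11.7% with KO below. Simulations with 3 against 3 arrays had 200 changed genes among 19937 and took each gene's observed spread as its true one. In them the test found 6.4% of changes of 0.5 log2 units and 58.4% of changes of 1. These shares are not detection rates for the data, where 874 genes were called. A gene without a call here is not shown to have equal levels. In RNA from a sorted population, fewer cells of a type and less RNA per cell cannot be told apart.

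**Figure D1:**
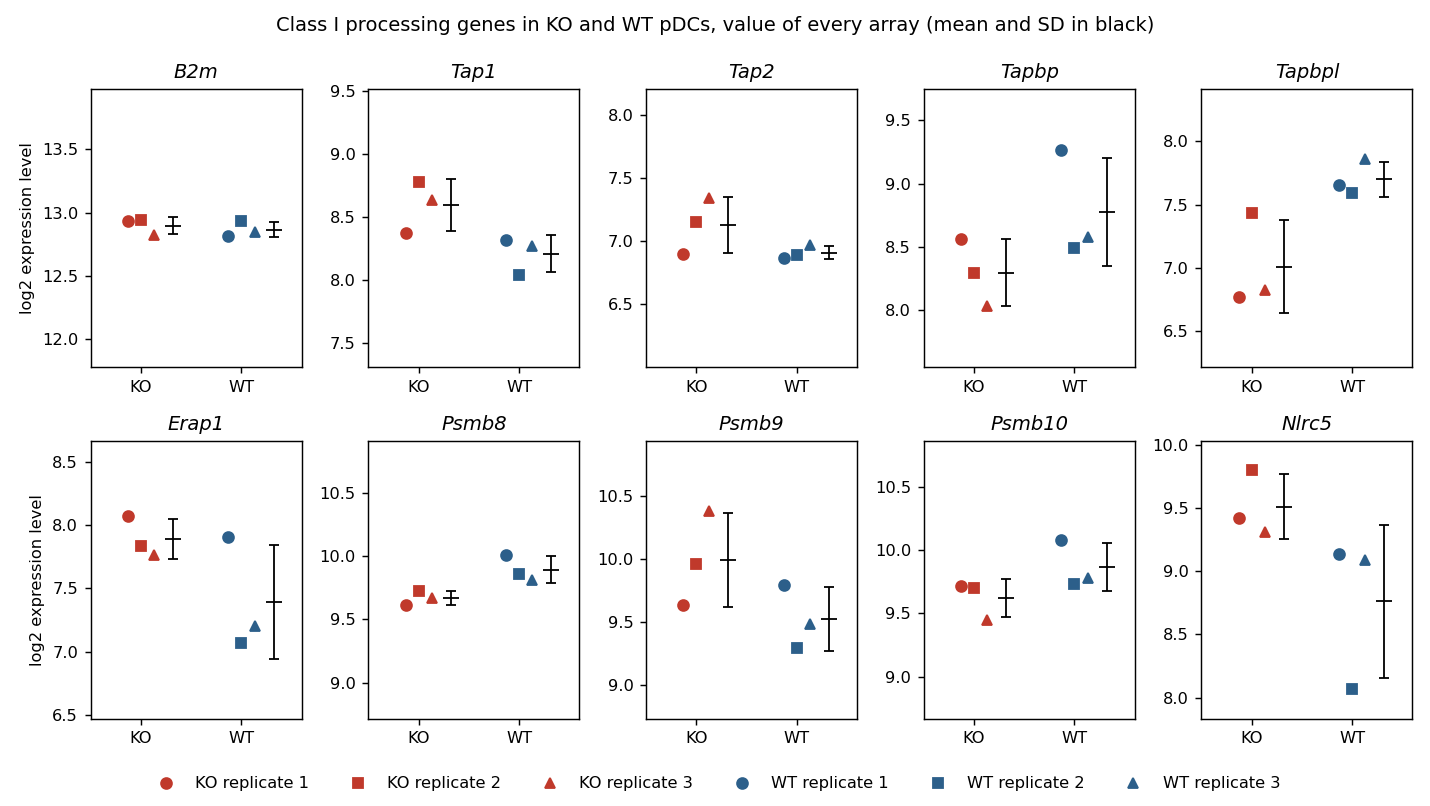
Log2 expression level (vertical axis, the same span of 2.2 units in each panel) of the 10 processing genes in each KO array (red, left) and each WT array (blue, right), with the mean and SD of 3 arrays in black. KO and WT points are separate for Tap1, Tapbpl, Psmb8, Psmb10 and Nlrc5, and Nlrc5 in WT replicate 2 lies well below the other 5 arrays.

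Nlrc5, the NOD-like receptor that switches on class I genes, had the largest positive difference of the 10 genes on its brightest probe set. It measured 9.42, 9.80 and 9.31 in KO replicates 1 to 3, against 9.13, 8.07 and 9.09 in WT. Every KO array was above every WT array, and WT replicate 2 was far below the other 5. The means were 9.51 ± 0.26 in KO and 8.76 ± 0.60 in WT (SD, n = 3 each), a difference of 0.75 (SE 0.29, 95% interval 0.07 to 1.43, limma adjusted p = 0.255). Without WT replicate 2 the difference was 0.40 (adjusted p = 0.394).

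The array carries 19 probe sets for Nlrc5, and they did not move as 1. Of these, 14 had a positive and 5 a negative difference, from -0.15 to 0.75 with a median of 0.26 (0.255 before rounding), and 0 of 19 passed limma's threshold in a fit over 21640 probe sets. At an unadjusted p under 0.05 there were 2, and these 2 were also those whose KO values were all above the WT values. One was the brightest. The other, 12th in brightness, measured 7.70, 8.10 and 8.04 in KO, against 7.37, 7.35 and 7.13 in WT, a difference of 0.67 (adjusted p = 0.0509). The mean of the 19 probe sets was 7.86, 8.22 and 7.97 in KO, against 7.71, 7.54 and 7.99 in WT, so that KO and WT values overlapped. That mean differed by 0.27 (SE 0.15, adjusted p = 0.472), which is less than the brightest probe set gave. WT replicate 2 was the lowest WT array in 10 of the 19 probe sets.

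**Figure D2:**
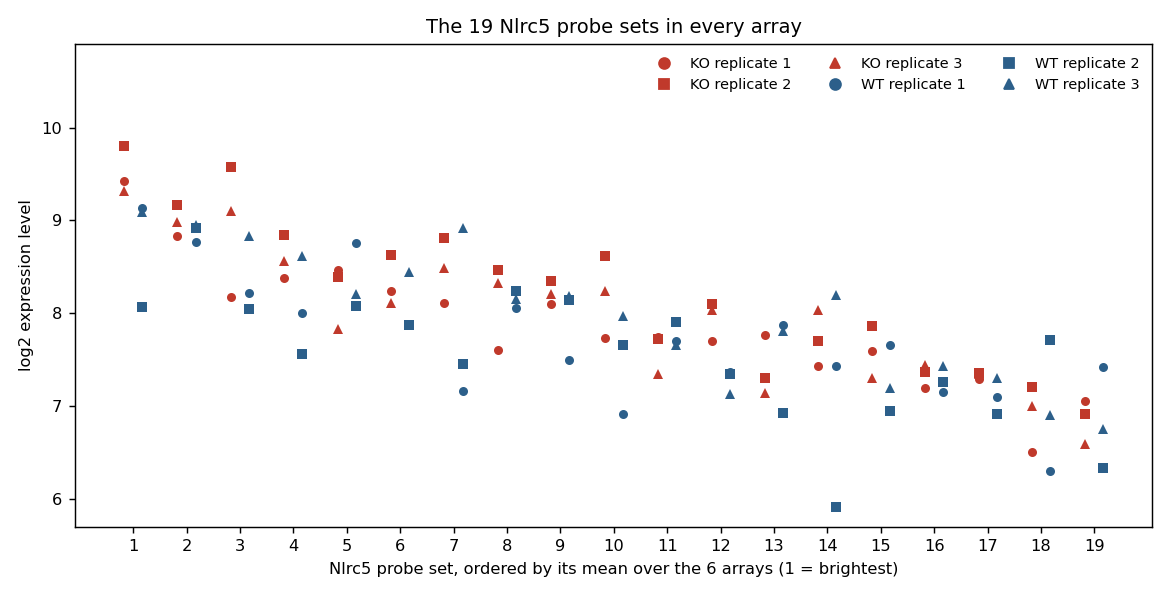
Log2 expression level of each of the 19 Nlrc5 probe sets (horizontal axis, ordered from the brightest to the dimmest) in KO arrays (red) and WT arrays (blue). KO points lie wholly above WT points in the 1st and the 12th probe set and are mixed with them in the other 17.

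B2m encodes beta-2 microglobulin, the light chain shared by all class I molecules, and its level was nearly the same in the 6 arrays. It measured 12.93, 12.94 and 12.82 in KO, against 12.82, 12.93 and 12.85 in WT. The groups overlapped fully. The difference was 0.032 (SE 0.10, adjusted p = 0.929), and its 95% interval, -0.21 to 0.27, corresponds to KO levels between 0.867 and 1.21 times the WT level. Of the 10 genes B2m had the narrowest interval.

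The catalytic subunits of the immunoproteasome did not share a direction. Psmb8, the chymotrypsin-like subunit beta-5i, measured 9.62, 9.73 and 9.67 in KO, against 10.01, 9.86 and 9.81 in WT. The KO arrays were all lower, by a small amount: the difference was -0.22 (SE 0.11, 95% interval -0.47 to 0.03, adjusted p = 0.38). Psmb10, the subunit beta-2i with trypsin-like activity, measured 9.71, 9.70 and 9.45 in KO, against 10.08, 9.73 and 9.78 in WT. Here too every KO array was below every WT array, with a difference of -0.24 (SE 0.14, adjusted p = 0.478). Without WT replicate 1 the Psmb10 difference was -0.13. Psmb9, the subunit beta-1i, measured 9.64, 9.96 and 10.38 in KO, against 9.80, 9.29 and 9.48 in WT. KO replicates 2 and 3 were above all WT arrays and KO replicate 1 lay between them. The difference was 0.47 (SE 0.21, 95% interval -0.03 to 0.96, adjusted p = 0.344), and 0.27 without KO replicate 3 and 0.78 (adjusted p = 0.0509) without both arrays numbered 1.

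Each immunoproteasome subunit takes the place of a constitutive one, and the log2 ratio of the pair within an array compares their changes. The ratio sets differences side by side and says nothing of the relative amount of the subunits, because probe sets differ in brightness. For Psmb9 minus Psmb6 it was -1.32, -0.62 and -0.40 in KO, against -1.28, -1.26 and -1.52 in WT. KO replicates 2 and 3 were above the WT range and KO replicate 1 was inside it. The shift was 0.58 (exact permutation p = 0.30, two-sided, adjusted over 3 pairs 0.45). For Psmb10 minus Psmb7 it was 1.03, 0.26 and -0.0045 in KO, against 1.06, 1.13 and 0.90 in WT, again with KO replicate 1 inside the WT range and the other two KO arrays outside it, here below. The shift was -0.60 (exact permutation p = 0.20, adjusted over 3 pairs 0.45). For Psmb8 minus Psmb5 the ratio was -0.75, -0.10 and -0.07 in KO, against -0.36, -0.22 and -0.14 in WT. KO replicate 1 was the lowest and the other two KO arrays the highest of the 6, and the shift was -0.064 (exact permutation p = 1.00, adjusted over 3 pairs 1.00). With 3 against 3 arrays the exact test cannot give a p below 0.10. Without KO replicate 1, the array with the high neutrophil signal, the shifts were 0.85, -0.90 and 0.16 in the same order of pairs, and without KO replicate 3 they were 0.39, -0.39 and -0.18.

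**Figure D3:**
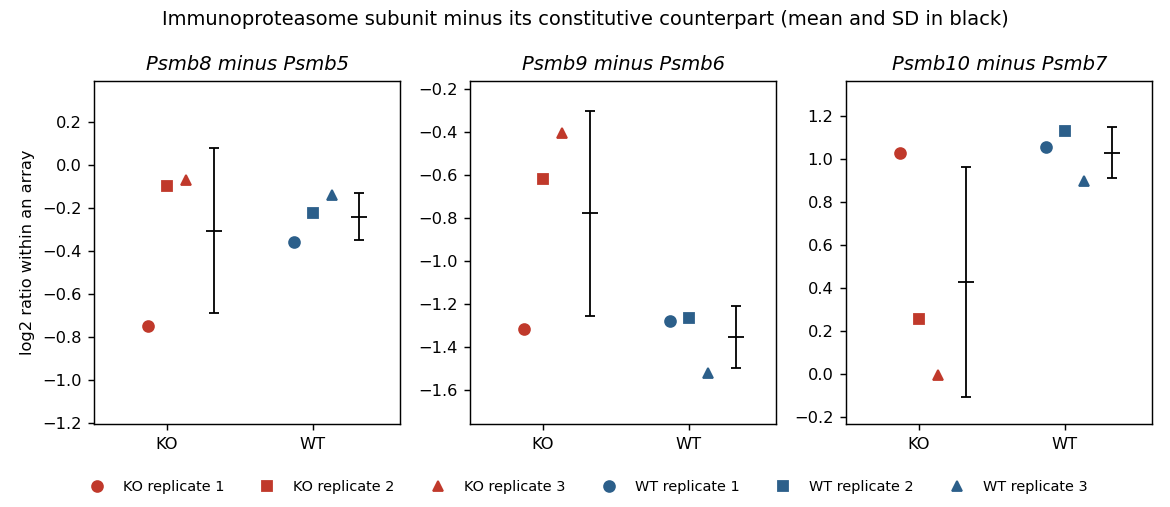
Log2 ratio of each immunoproteasome subunit to its constitutive counterpart within each array (vertical axis), KO in red on the left and WT in blue on the right, with the mean and SD of 3 arrays in black. The KO arrays spread far more than the WT arrays in all 3 panels, and KO replicate 1 (circle) stands apart from the other two KO arrays.

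The constitutive counterparts and the activator subunits were read as single genes too. Psmb5, Psmb6 and Psmb7, the catalytic subunits of the standard proteasome, differed by -0.16, -0.11 and 0.36 (adjusted p = 0.782, 0.84 and 0.524). Leaving out single arrays gave -0.35 to -0.040 for Psmb5, -0.27 to -0.012 for Psmb6 and 0.23 to 0.62 for Psmb7. Psme1 and Psme2 form the PA28 cap, an interferon-induced activator of the proteasome. Psme1 differed by -0.06 (adjusted p = 0.895). Psme2 measured 10.12, 9.26 and 9.25 in KO, against 10.44, 10.17 and 10.16 in WT. All KO arrays were below all WT arrays, with KO replicate 1 close to the WT values and the other two nearly 1 log2 unit lower. The difference was -0.71 (SE 0.24, adjusted p = 0.186), and without KO replicate 1 it was -0.99 (adjusted p = 0.00638). The gene also passed without both arrays numbered 1 (adjusted p = 0.00981) and with array weights (adjusted p = 0.0348). Leaving out any other single array gave an adjusted p of 0.296 to 0.48. Mouse Psme2 has a near-identical copy, Psme2b, that can share its signal.

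The peptide transporter was represented by both chains of the TAP dimer. Tap1 measured 8.37, 8.78 and 8.64 in KO, against 8.32, 8.04 and 8.27 in WT. The KO arrays were all above the WT arrays, though KO replicate 1 exceeded WT replicate 1 by little. The means were 8.60 ± 0.21 in KO and 8.21 ± 0.15 in WT (SD, n = 3 each), a difference of 0.39 (SE 0.14, 95% interval 0.05 to 0.72, adjusted p = 0.229), or 1.31-fold. Tap2 measured 6.89, 7.15 and 7.34 in KO, against 6.87, 6.89 and 6.97 in WT. The values overlapped through KO replicate 1, and the difference was 0.22 (SE 0.14, 95% interval -0.10 to 0.54, adjusted p = 0.519). It was 0.34 without KO replicate 1 and 0.11 without KO replicate 3. Tap1 and Psmb9, the divergent pair whose shared window is printed above, thus had differences of 0.39 and 0.47. For both genes WT replicate 1 was the highest and WT replicate 2 the lowest WT array, and KO replicate 1 the lowest KO array. These ranks were not particular to the pair. Of the 10 genes, WT replicate 1 was the highest WT array in 7 and WT replicate 2 the lowest in 7. KO replicate 1 was the lowest KO array in 5. The highest KO array differed within the pair, KO replicate 2 for Tap1 and KO replicate 3 for Psmb9. H2-Ob, a subunit of the class II chaperone H2-O and the coding gene next to Tap2, rose 5.33-fold (adjusted p = 0.000352).

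Erap1, the ER aminopeptidase that trims peptides to their final length, measured 8.07, 7.84 and 7.76 in KO, against 7.90, 7.07 and 7.20 in WT. WT replicate 1 was the second highest of the 6 arrays, far above the other two WT arrays, and through it the groups overlapped. The means were 7.89 ± 0.16 in KO and 7.39 ± 0.45 in WT (SD, n = 3 each), a difference of 0.50 (SE 0.22, 95% interval -0.02 to 1.02, adjusted p = 0.332). The gene was called higher in KO without WT replicate 1 (0.76, adjusted p = 0.0456) and without both arrays numbered 1 (0.67, adjusted p = 0.0335). Over its 15 alternatives the adjusted p ran from 0.0335 to 0.642.

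The peptide editors both had negative differences. Tapbpl encodes TAPBPR, which exchanges peptides on class I molecules outside the loading complex. It measured 6.77, 7.43 and 6.83 in KO, against 7.65, 7.59 and 7.86 in WT. All KO arrays were below all WT arrays, and KO replicate 2 came close to the WT range. The means were 7.01 ± 0.37 in KO and 7.70 ± 0.14 in WT (SD, n = 3 each), a difference of -0.69 (SE 0.19, 95% interval -1.13 to -0.25, adjusted p = 0.106), the smallest adjusted p of the 10 genes. It passed without KO replicate 2 (-0.90, adjusted p = 0.0315), and over its 15 alternatives the adjusted p ran from 0.0315 to 0.309. Tapbp encodes tapasin, which holds class I molecules at the transporter. It measured 8.56, 8.29 and 8.03 in KO, against 9.27, 8.49 and 8.57 in WT. KO replicate 1 exceeded WT replicate 2, so the groups overlapped, and WT replicate 1 was the highest by a wide margin. The difference was -0.48 (SE 0.23, 95% interval -1.02 to 0.06, adjusted p = 0.38), and -0.24 without WT replicate 1.

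**Figure D4:**
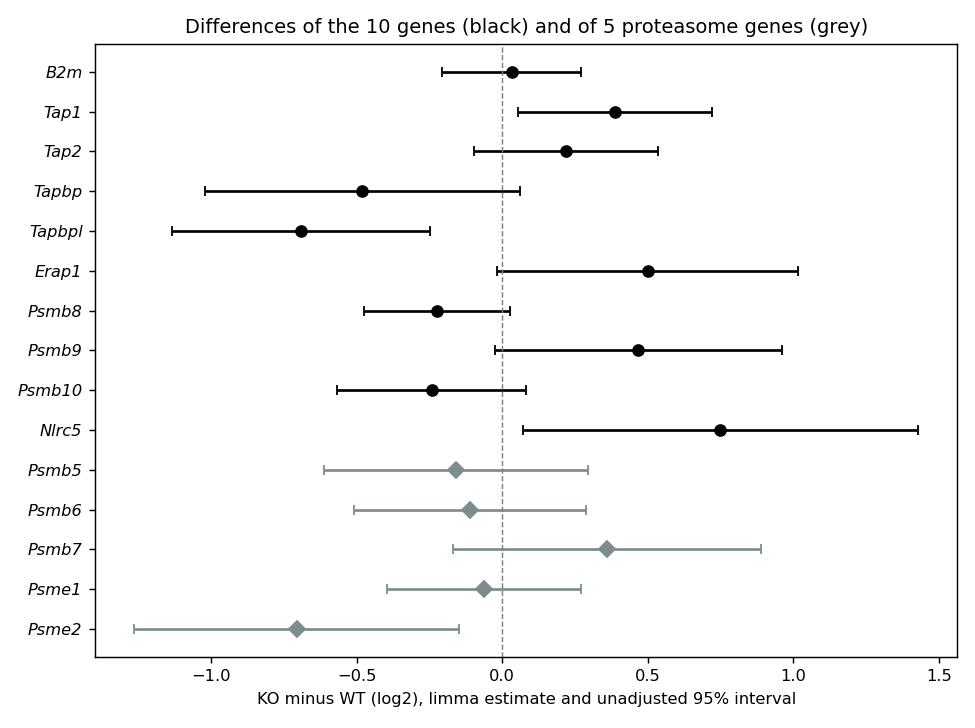
KO minus WT difference in log2 units (horizontal axis) of the 10 processing genes (black circles) and of 5 proteasome genes (grey diamonds), with limma's 95% interval for each gene, not adjusted for the number of genes. Intervals lie wholly above 0 for Tap1 and Nlrc5 and wholly below 0 for Tapbpl and Psme2, none of which passed the adjusted threshold.

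Single arrays moved several of the 10 genes at once. Among the WT arrays, replicate 1 was the highest in 7 genes and replicate 2 the lowest in 7. The summed neutrophil signal was the highest of its group in both arrays numbered 1. In WT replicate 1 it came mainly from S100a8 and S100a9, at 9.34 and 9.12, against 4.44 to 5.99 in WT replicates 2 and 3. Elane, Mpo and Ltf (4.67, 5.28 and 4.39) were not above both of those arrays. Camp, Ngp, Prtn3, Ctsg and Mmp8 were above them by less. The summed macrophage signal was lower in WT replicate 1 than in WT replicates 2 and 3, as given above. The part of either in these values was not tested. The median shift of the 10 genes from their WT means was 0.025, 0.16 and 0.17 in KO replicates 1 to 3, against 0.17, -0.15 and -0.030 in WT. The range of the 3 KO arrays lay inside that of the 3 WT arrays.

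Other genes of the class I pathway were mostly without a call as well. Of 97 entries in 9 lists, 81 were measured, of which 4 rose, 2 fell and 75 passed in neither direction by limma, a share called of 6 in 81 beside 4.38% of all genes. Their median difference was -0.060, beside -0.037 for all genes. Among class I heavy chains 10 of 21 could be read. The others, H2-K1 and H2-D1 among them, had no probe set annotated to their symbol alone. Of the 10 read, 0 rose and 0 fell (0 at an unadjusted p under 0.05, beside 16.1% of all genes), with a median of -0.18. H2-Q4, a non-classical heavy chain of a family with similar members, measured 7.03, 8.29 and 8.49 in KO, against 6.91, 7.44 and 7.40 in WT (0.69, adjusted p = 0.441). Its KO replicate 1 lay inside the WT range, and without that array the difference was 1.14 (adjusted p = 0.0128), and without KO replicate 3 it was 0.41 (adjusted p = 0.8). H2-T24 differed by -0.39 (adjusted p = 0.459), and by -0.19 without WT replicate 1.

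Class I-like molecules that also pair with beta-2 microglobulin had 0 calls among 4 measured, and 2 at an unadjusted p under 0.05. Over all genes 4.38% were called and 16.1% had an unadjusted p under 0.05. Cd1d1, which presents lipids to NKT cells, measured 6.60, 6.81 and 6.46 in KO, against 5.94, 6.25 and 5.88 in WT, all KO arrays above all WT arrays (0.60, adjusted p = 0.0727). Hfe, a regulator of iron uptake, differed by -0.47 (adjusted p = 0.0803), with all KO arrays below all WT arrays. Array weights gave Hfe an adjusted p of 0.0353. Of 6 loading chaperones 0 were called and 1 had an unadjusted p under 0.05. Uggt1, the folding sensor that returns glycoproteins to the chaperones, differed by -0.36 (adjusted p = 0.202), and Calr, calreticulin of the loading complex, by 0.27 (adjusted p = 0.317).

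Neither the rest of the proteasome nor the cytosolic peptidases gave a call. Over all genes 4.38% were called, 16.1% had an unadjusted p under 0.05, and 11595 of 19937 differences were negative. Of 16 other 20S subunits 0 passed, and 0 had an unadjusted p under 0.05, with differences from -0.45 for Psma8, a subunit known from germ cells, to 0.36 for Psmb7. Psma8 measured 3.78 to 4.85 over the 6 arrays, below all array medians. Its difference was -0.23 without KO replicate 2. Psmb1, a beta subunit without catalytic activity, differed by -0.44 (adjusted p = 0.611), and leaving out single arrays gave -0.78 (without KO replicate 1) to -0.16 (without KO replicate 3). Psmb7 passed without both arrays numbered 1 (0.71, adjusted p = 0.0376). Of 10 activators, inhibitors and assembly factors 0 passed and 2 had an unadjusted p under 0.05, with 8 of 10 differences negative and a median of -0.27. Besides Psme2, Psmg4, a chaperone of proteasome assembly, differed by -0.65 (adjusted p = 0.517), with 8.87, 7.84 and 7.81 in KO, against 9.60, 8.66 and 8.21 in WT. It differed by -0.26 without WT replicate 1 and by -0.997 without KO replicate 1. Of 7 peptidases 0 passed and 2 had an unadjusted p under 0.05. Tpp2, a large peptidase that acts after the proteasome, missed the threshold narrowly. It measured 8.27, 8.52 and 8.53 in KO, against 7.97, 7.63 and 7.90 in WT, all KO arrays higher (0.61, SE 0.14, adjusted p = 0.0527). It passed in 5 of 15 alternatives, whose adjusted p ran from 0.0181 to 0.198. Blmh, bleomycin hydrolase, differed by 0.52 (adjusted p = 0.215).

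With all arrays, the 6 calls among 81 pathway genes, beside 4.38% of all genes, were of regulators, receptors and trafficking genes. Which genes were called changed with the arrays and the fit used, so no place in the pathway is read from them. Of 12 regulators of class I genes 2 rose and 0 fell. Creb1, a factor of the class I enhancer complex, measured 9.03, 8.89 and 9.03 in KO, against 8.34, 8.25 and 8.20 in WT, 1.65-fold higher (adjusted p = 0.00972). Irf2, an interferon regulatory factor that binds interferon response elements, measured 9.54, 9.71 and 9.78 in KO, against 9.14, 8.79 and 8.91 in WT, 1.66-fold higher (adjusted p = 0.0218). Creb1 lost its call without KO replicate 3 (adjusted p = 0.0525), and Irf2 without any of KO replicates 2 and 3 and WT replicates 2 and 3 (highest adjusted p 0.0987).

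The interferon gamma receptor moved in opposite directions in its chains. Of 7 receptor and kinase genes 1 rose and 2 fell, beside 2.3% and 2.08% of all genes. Ifngr1, the ligand-binding chain, measured 9.09, 9.84 and 10.09 in KO, against 7.75, 8.36 and 8.37 in WT, 2.86-fold higher (adjusted p = 0.0251). Ifngr2, the signalling chain, measured 8.67, 8.45 and 8.69 in KO, against 9.15, 9.19 and 9.10 in WT, and fell by 0.54 on the log2 scale (adjusted p = 0.0381). Jak2, the kinase bound to that chain, measured 8.21, 8.32 and 8.18 in KO, against 8.99, 8.82 and 8.82 in WT, and fell by 0.65 on the log2 scale (adjusted p = 0.0168). All 3 genes were separate between the groups, as were 20.4% of all genes. Ifngr2 and Jak2 also lost their calls without both arrays numbered 1 (adjusted p = 0.0684 and 0.0525), and Ifngr2 with a variance trend (0.0833). Each of the 3 calls was lost when any single array other than KO replicate 1 was left out, with highest adjusted p of 0.109 for Ifngr1, 0.152 for Ifngr2 and 0.0817 for Jak2. Of 9 cross-presentation factors 1 rose and 0 fell, beside the same shares of all genes called. Rab27a, a GTPase that delivers lysosome-related vesicles, rose 2.15-fold (adjusted p = 0.0114), a call lost without KO replicate 2 or WT replicate 2 or 3 (highest adjusted p 0.0568).

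Lists of interferon-induced and class II genes were read in the same samples. Whether they differ from the 10 processing genes was not tested. Over all genes 2.3% were called higher and 2.08% lower, and 16.1% had an unadjusted p under 0.05. Beside that share, 17 of 21 type I interferon-stimulated genes had an unadjusted p under 0.05. So did 8 of 12 interferon gamma-induced genes and 6 of 9 class II genes. Of 21 type I interferon-stimulated genes 13 rose and 0 fell, with a median of 1.14, and Rtp4, Oas2, Ifit3 and Ifit1 rose between 9.13-fold and 53.0-fold. Of 12 genes induced by interferon gamma 2 rose and 0 fell, with a median of 0.40 and 5 negative differences. Gbp7, a guanylate-binding protein, rose 3.57-fold (adjusted p = 0.000972) and Cxcl10, a chemokine for T cells, 2.96-fold (adjusted p = 0.0104, and 0.0508 and 0.051 without WT replicate 2 or 3). Of 9 class II genes 2 rose and 0 fell, with a median of 0.34, namely H2-Ob and Ciita. Ciita, the class II transactivator and a relative of Nlrc5, measured 7.97, 8.06 and 8.02 in KO, against 6.94, 7.14 and 7.28 in WT. Its groups were well separate, with a 1.86-fold rise (adjusted p = 0.00717). The Ciita difference was 0.895 (SE 0.12) on 1 probe set. The Nlrc5 difference was 0.75 (SE 0.29) on its brightest probe set, the largest of its 19, and 0.27 (SE 0.15) for their mean. Leaving out single arrays gave 0.80 to 0.97 for Ciita, and 0.40 to 0.93 for the brightest Nlrc5 probe set.

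**Figure D5:**
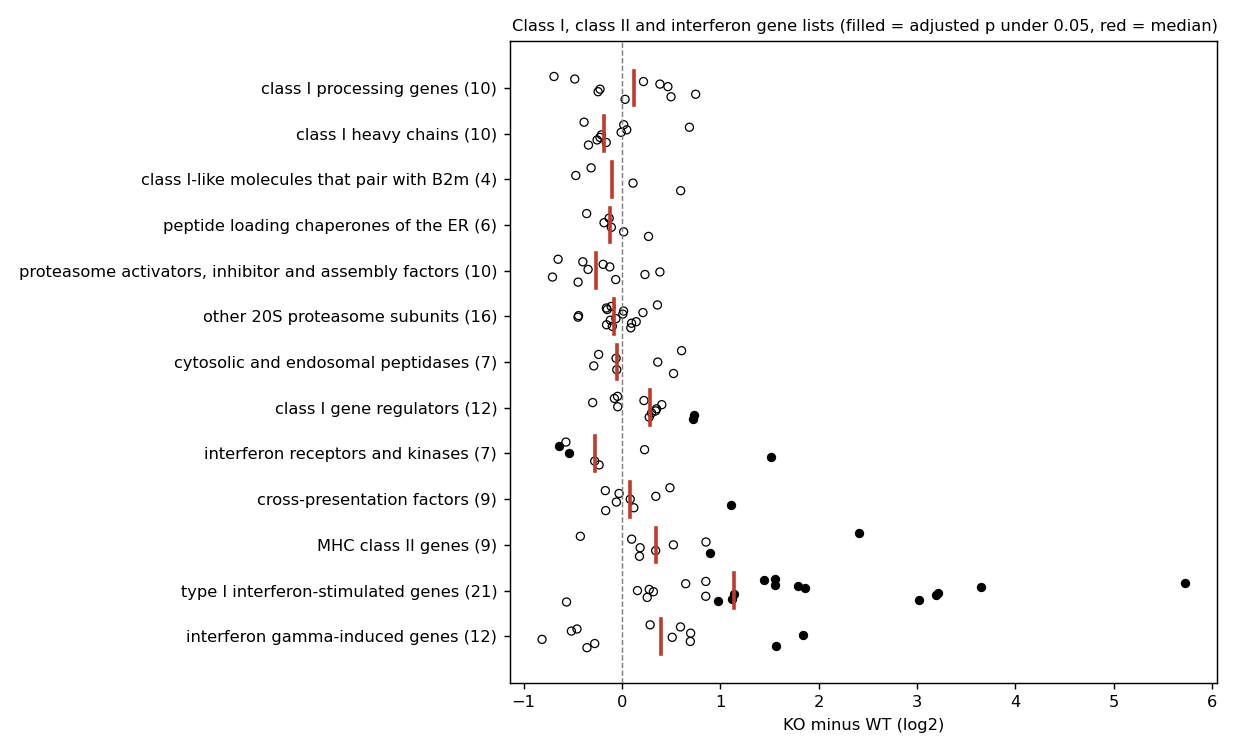
KO minus WT difference in log2 units (horizontal axis) of each measured gene in the 10 class I processing genes, the 9 other class I pathway lists, and 3 lists of class II and interferon-induced genes, with the number measured in brackets. Filled circles passed limma's adjusted threshold and red bars are medians, which lie at 0.13 for the processing genes and 1.14 for type I interferon-stimulated genes.

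The genes most like the 10 processing genes in their mean pattern over the 6 arrays were Tex261, Vmn1r195, Fkbp8, Tbc1d30 and Chmp7, with Pearson r of 0.983, 0.975, 0.968, 0.967 and 0.964. The mean pattern was -0.027, 0.14 and -0.0023 in KO replicates 1 to 3, against 0.16, -0.23 and -0.04 in WT, so that WT replicates 1 and 2 were its extremes. Those 5 genes were chosen by this likeness among 19937 genes and 6 arrays, and their own differences ran from 0.02 to 0.15 (adjusted p from 0.74 to 0.958). Vmn1r195 measured 3.61 to 4.05 and Tbc1d30 4.13 to 4.47, both below all array medians (5.53 to 5.56).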

How the data were processed

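RNA of splenic pDCs from 3 KO and 3 WT samples was amplified (NuGen PICO SL) and biotin-labelled, per the labels' protocols. The authors deposited 1 log2 expression value per probe set and array for 34760 probe sets. That scale follows from the range of the values. How the background was corrected and the arrays normalized is not given in the sources used here. Since array medians are nearly equal, a shift shared by all genes would not show. No detection calls were used, and 3 arrays a group limit the precision.

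Gene names came from the platform annotation. Those with 1 symbol, 21640 in all, entered the tests, and a gene's brightest probe set by its 6-array mean stood for it. Entrez identifiers matched 21553 of them to RefSeq (GRCm38.p6) and changed 0 symbols. Genotypes were compared with limma 3.58.1 in R 4.3.3 (lmFit and eBayes, no covariates, no filter on dim genes), two-sided, with Benjamini-Hochberg adjustment over all 19937 genes and a threshold of 0.05. Differences are KO minus WT with the fit's standard error. Intervals at 95% are per gene. Subunit ratios were compared by exact permutation of all 20 relabellings (scipy 1.17.1). On simulated data for this comparison, 5 runs with 200 changed genes among 19937, limma found 6.4%, 58.4%, 91.2% and 98.4% of changes of 0.5, 1, 2 and 3 log2 units, and 5.36% of its calls were false. Figures were drawn with matplotlib 3.10.9.

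The 10 genes, the gene lists and the tests were chosen with earlier results of these data known. Genes named are the 10, Psmb5 to Psmb7, Psme1 and Psme2, Irf8, Siglech and Ptprc, up to 4 genes past the threshold with the largest difference in each pathway or comparison list (2 as values where none passed), and the 5 genes most like the mean pattern. Siglech aside, the marker genes given for dendritic, B, T and NK cells were named after their values were seen, whether or not they passed the threshold. A further motif searched in the promoter windows is not reported here. Alternatives were quantile normalization, median centring, bright genes alone, a mean over each gene's probe sets, RefSeq-matched probe sets, a robust fit with a variance trend, array weights (statmod 1.5.0), replicate numbers as blocks, each array left out in turn, and both arrays numbered 1 left out.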

Additional observations from a re-analysis of the deposited data

How the results depend on the processing

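Over 15 alternatives for each of the 10 processing genes, 150 in all, 3 passed limma's threshold, which were Tapbpl without KO replicate 2 and Erap1 without WT replicate 1 or without both arrays numbered 1. The number of the 10 genes called higher in KO was 1 without both arrays numbered 1, and leaving out single arrays gave 0 to 1 higher and 0 to 1 lower. Their median difference ran from 0.07 to 0.18. Directions turned in B2m with quantile normalization (-0.072) and without both arrays numbered 1 (-0.0088), and in the Psmb8 minus Psmb5 ratio without KO replicate 1 (0.16) or both arrays numbered 1 (0.099), leaving out single arrays giving -0.18 to 0.16. They also turned in Psme1 without WT replicate 1 or without both arrays numbered 1 (0.071), single arrays giving -0.16 to 0.049. Leaving out KO replicate 2 (-0.0053) or WT replicate 2 turned Chmp7 (-0.039 to 0.099), and leaving out WT replicate 2 turned Fkbp8 (-0.050 to 0.26) and Vmn1r195 (-0.040 to 0.18), ranges over single arrays left out. The other 9 genes of the 10 had the same direction in all 15 alternatives.

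The labels do not say what a shared replicate number means, and the correlations of deviations were 0.379, 0.097 and 0.252 for numbers 1 to 3, so the numbers were not taken as pairs. KO replicate 1 and KO replicate 3 correlated best with their own number, while KO replicate 2 did so with WT replicate 3 (0.2). With the replicate number as a block, 707 genes were higher and 655 lower in KO over all genes, with 5 pathway genes lower, and 0 of the 10 genes were called. Of the other genes named, Psme2 (-0.71, adjusted p = 0.0429), Psmg4 (-0.65, 0.0335) and Cd1d1 (0.60, 0.0249) gained a call with the block and none lost one. Array weights gave 716 higher, 647 lower and 6 pathway genes lower. Without both arrays numbered 1 there were 741 higher and 641 lower, with 7 pathway genes higher and 1 lower, and a variance trend with robust estimation gave 1 pathway gene lower. Leaving out single arrays gave 249 to 780 genes higher and 202 to 719 lower over all genes, against 459 and 415 with all arrays, and 1 to 7 pathway genes higher and 0 to 5 lower, against 4 and 2. The cause of these shifts was not tested.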
